A study of Mus musculus with 2 samples.

Results

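The 8 genes described here encode the subunits of the chaperonin TRiC, also called CCT: Tcp1, Cct2, Cct3, Cct4, Cct5, Cct6a, Cct7 and Cct8. They were taken by name from the count table, where all 8 are among its 15364 genes. TRiC is a cytosolic folding machine made of a pair of stacked rings, and each ring holds 1 copy of each of the 8 subunits. It closes over its substrates with ATP and is best known for folding actin and tubulin, which reach it from the co-chaperone prefoldin, and the cell cycle regulator Cdc20. Because each ring needs all 8 subunits in equal number, the evenness of their transcripts is described beside their level.

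The cells were neural stem cells of the hippocampus, taken from C57BL6/J males aged 6 weeks and grown in culture. No genetic change is named in the labels. Activated cells grew in medium with 20 ng/mL FGF-2 and EGF. Quiescent cells were kept without EGF and with 50 ng/mL BMP-4, a signal that holds these cells out of the cycle, for at least 3 days. The 24 h and 48 h exit cultures were quiescent cells returned to activated medium with 0.5 ug/mL of the BMP-4 antagonist noggin. Each culture was sorted singly across 4 gates of punctate autofluorescence, from Low through Low-mid and Mid-high to High. How many mice were pooled is not given in the sources used here, and each state is 1 culture, so differences between cultures have no replicate check and no p-value.

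The table holds 640 cells from 768 wells of 2 plates: 174 quiescent, 151 at 24 h, 151 at 48 h and 164 activated cells, where the labels state 47 per condition. Median totals per cell ran from 19270 molecules at 24 h to 35945 in the activated culture. Quiescent and 24 h cells shared 1 plate, and 48 h and activated cells the other, so in activated against quiescent and in 48 h against 24 h the plate and the state cannot be told apart. Well barcodes repeat between plates by design, and 269 well positions were kept on both. Of the neural stem cell markers Nes, Sox2, Vim, Fabp7, Slc1a3 and Hopx, all 6 were detected in every culture, with a summed level of 4147 to 6510 CPM (molecules of the gene scaled to a common total for every culture). The 4 astrocyte markers (Aqp4, S100b, Gfap and Aldh1l1) summed to 672.6 CPM in the quiescent and 112.1 CPM in the activated culture, where Aldh1l1, at 56.9 and 106.4 CPM, went the other way. Olig2, listed with the oligodendrocyte markers, stood between 486.7 and 1618 CPM, while Mbp reached at most 0.328 CPM. Microglia and endothelial markers summed to under 1 CPM in each culture.

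The stretches upstream of the annotated starts are shown because the 8 genes differed together between cultures. RefSeq promoter entries (GRCm38.p6) matched 7 of the 8 genes, and Cct4 had none. Capitals mark GC boxes (GGGCGG or its reverse CCGCCC) and CCAAT boxes (or the reverse ATTGG), read 5′ to 3′ on the strand of the gene and with exons of any gene left out. These motifs were chosen for display after their counts were seen. Cct2 lies on the minus strand at chr10:117063853-117064102, Cct3 on the plus strand at chr3:88297000-88297115, Cct7 on the plus strand at chr6:85451284-85451504, and Cct8 on the minus strand at chr16:87495874-87495998.
Cct2: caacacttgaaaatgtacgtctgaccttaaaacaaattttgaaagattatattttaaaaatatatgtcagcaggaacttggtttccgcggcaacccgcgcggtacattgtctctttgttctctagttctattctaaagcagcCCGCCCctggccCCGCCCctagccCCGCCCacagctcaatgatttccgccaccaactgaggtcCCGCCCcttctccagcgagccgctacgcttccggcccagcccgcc
Cct3: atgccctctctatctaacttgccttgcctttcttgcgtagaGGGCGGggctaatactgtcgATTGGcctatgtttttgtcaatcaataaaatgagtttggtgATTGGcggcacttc
Cct7: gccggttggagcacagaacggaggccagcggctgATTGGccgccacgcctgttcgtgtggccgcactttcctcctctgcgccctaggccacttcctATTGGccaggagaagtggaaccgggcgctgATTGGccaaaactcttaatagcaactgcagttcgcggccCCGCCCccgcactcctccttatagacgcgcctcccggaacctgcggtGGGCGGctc
Cct8: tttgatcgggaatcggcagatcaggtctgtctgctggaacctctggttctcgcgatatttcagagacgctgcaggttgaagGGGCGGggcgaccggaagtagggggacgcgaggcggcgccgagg
The Cct2 stretch shown, from its entry 1, has 4 GC boxes and no CCAAT box, whereas that of Cct7 has 3 CCAAT boxes and 2 GC boxes. Entry 2 of Cct2 (chr10:117063376-117063625), not shown, has 1 GC box and no CCAAT box over 250 bases free of exons. Over the 250 bases upstream of each start, exons included and on both strands, a GC box was found for 7 of 7 genes, against 32.7% of 32851 promoters. A gene counted if any of its entries matched, whereas the share is over single entries. Cct2 and Cct5 had 2 entries each, and entry 2 of Cct5 had no GC box. Tcp1 and Cct6a had 0 bases free of exons. The exon-free stretches of Cct5, 5 and 61 bases long, had no GC box. A CCAAT box was found for 4 of 7 (33.8% of promoters), the ETS-type CCGGAAG for 2 (6.91%) and the heat shock element GAANNTTC for 1 (6.69%). The E-box CACGTG (6.02% of promoters), the CRE-type TGACGTCA (1.55%) and the NRF1-type palindrome (0.782%) were found for 0 of 7. A match describes letters only and is not a binding site.

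The genes lie on 8 different chromosomes. In the GRCm38 gene models Tcp1 spans chr17:12915701-12925067 and Cct6a chr5:129786998-129846371, and each holds snoRNA genes on its own strand. Cct4 spans chr11:22990519-23003780 and Cct5 chr15:31590800-31601804, with no overlapping gene. Mrpl18 and Acat3 overlap Tcp1, Psph overlaps Cct6a, Pradc1 overlaps Cct7 and Usp16 overlaps Cct8, all on the opposite strand. Whether the counting used strand is not given in the sources used here, so reads of these pairs might not be separated.

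All 8 subunits stood highest in the activated culture and lower in the other 3. The 8 together made up 1056 CPM in quiescent cells, 1048 after 24 h, 1660 after 48 h and 2723 CPM in activated cells. The quiescent and 24 h values lie together, the activated value is the highest, and 48 h lies between. These sums rest on 5086, 3193, 6847 and 17870 molecules. Per 1000 molecules of spike-in RNA, added from outside as a scale for RNA per well, the sums were 80.9, 58.2, 145.3 and 323.2, so on that scale the 24 h culture lay below the quiescent one.

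Cct2 (the beta subunit) and Cct6a (zeta) were the most abundant. Cct2 had 244.7 CPM in quiescent cells, 234.5 at 24 h, 352.5 at 48 h and 572.9 in activated cells. Cct6a had 223.8, 200.03, 362.4 and 570.2 CPM in the same order. These 2 genes were the top pair in 4 of 4 cultures and in 16 of 16 sums of a culture and gate, and which of the 2 led changed between cultures. Their counting intervals overlapped in the quiescent culture (230.8 to 259.0 CPM for Cct2, 210.7 to 237.6 for Cct6a), at 48 h and in the activated culture, but not at 24 h.

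Cct7 (eta), Cct8 (theta) and Cct3 (gamma) formed the middle of the order. Cct7 had 141.5, 132.0, 217.6 and 361.4 CPM from quiescent through 24 h and 48 h to activated. Cct8 had 123.2, 123.5, 178.5 and 297.9 CPM. Cct3 had 117.0, 115.6, 176.8 and 280.7 CPM. Cct8 and Cct3 did not separate beyond their counting intervals in any culture.

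Cct4 (delta), Tcp1 (alpha) and Cct5 (epsilon) were the least abundant. Cct4 had 77.3, 101.8, 144.1 and 260.8 CPM. Tcp1 had 71.9, 73.5, 104.5 and 180.7 CPM. Cct5 had 56.7, 67.0, 123.2 and 198.0 CPM. Tcp1 and Cct5 were the lowest pair in 4 of 4 cultures and in 14 of 16 gate sums. Each molecule was counted once at its 3′ end, so these levels are not scaled by length and the order could also carry differences in capture.

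**Figure D1:**
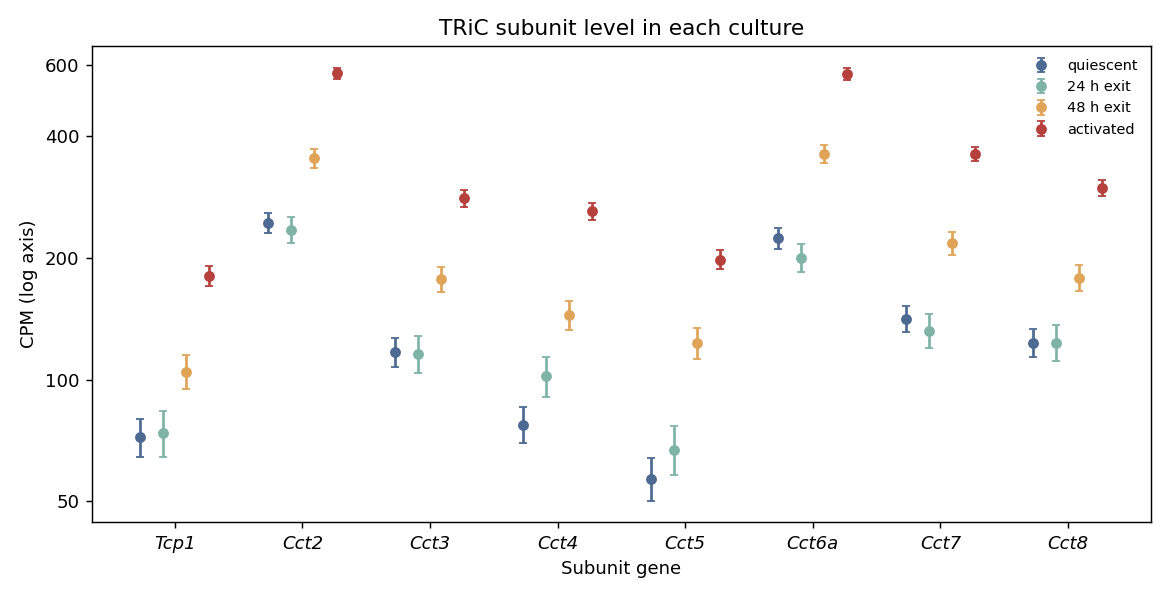
Level of each TRiC subunit gene in CPM (log axis) in the 4 cultures, as points with exact Poisson 95% intervals that cover counting error only. Each subunit is highest in the activated culture, second at 48 h and low in the quiescent and 24 h cultures, and Cct2 and Cct6a lie above the others in each.

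The first comparison within a plate asks what 24 h of exit changed. As a share of counts the TRiC sum differed by less than its counting error: its log2 ratio to quiescent (on CPM + 10, as for all ratios of levels) was -0.011, with a counting interval of -0.074 to 0.053 and values of -0.17 to 0.07 in the 4 gates. Of the 8 subunits 4 were higher, beside 48.3% of the 10462 genes compared, and none was past 1.5-fold, which 4.53% of genes passed upward and 6.28% downward. The median subunit was at -0.0065 and the median gene at -0.013. Per spike-in molecule the sum was lower by a log2 ratio of -0.48.

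The subunits were less even at 24 h than counting error alone gives, with an SD of 0.168 over the 8 log2 ratios beside a counting error of 0.101. Cct4 stood apart: its ratio was 0.36 (0.16 to 0.56), and it was higher in 4 of 4 gates (0.30 to 0.45), which holds for 14.7% of genes. Cct4 was 1 of 8 subunits with that pattern, and per spike-in molecule its ratio turned to -0.067. The share of Cct4 in all TRiC molecules was 7.32% (exact binomial 95% interval 6.61 to 8.06) in the quiescent culture and 9.71% (8.70 to 10.8) at 24 h, a measure that needs no scaling. Cct6a had the lowest ratio, -0.15 (-0.29 to -0.02), with a share of 21.2% in quiescent cells and 19.1% at 24 h, and its Low gate had the opposite sign (0.13).

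The second comparison within a plate sets the 48 h culture beside the activated one. All 8 subunits were lower at 48 h and past 1.5-fold, beside 7.96% of 10780 genes, and 0 were higher, beside 38.8% of genes by any amount and 3.99% past 1.5-fold. With mitochondrial and ribosomal protein genes out of the total, 2 of 8 (Tcp1 and Cct4) were lower past 1.5-fold, beside 6.2% of genes. The sum had a log2 ratio of -0.71 (-0.75 to -0.67), with -0.94 to -0.40 over the gates, and -1.15 per spike-in molecule. All 8 were lower in all 4 gates, as were 27.6% of genes. This was the most even of the 4 comparisons: the ratios ran from -0.81 (Cct4) to -0.64 (Cct3), with an SD of 0.060 beside a counting error of 0.063, where the SD over all genes was 0.410 around a median of -0.08. The SD over all genes includes genes with as few as 20 counts, which have more counting error, so it is not matched to the subunits in level.

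Across plates, all 8 subunits were past 1.5-fold higher in activated than in quiescent cells, beside 19.8% of 11011 genes (55.1% were higher by any amount and 14.3% lower past 1.5-fold). All 8 were higher in all 4 gates, as were 34.4% of genes. The sum had a log2 ratio of 1.36 (1.31 to 1.40), with 1.23 to 1.53 over the gates and 2.00 per spike-in molecule. The median subunit was at 1.26 and the median gene at 0.07. Cct5 (1.64) and Cct4 (1.63) had the highest ratios and the other 6 lay between 1.20 and 1.31, which gave an SD of 0.190 beside a counting error of 0.0724. In 48 h against 24 h cells all 8 were higher, beside 47.4% of 10324 genes, and 3 of 8 were past 1.5-fold, beside 11.7%: Cct6a at 0.83, Cct5 at 0.79 and Cct7 at 0.68. Under other settings that count was 2 to 5, and 8 per spike-in molecule. None was lower past 1.5-fold, which 9.89% of genes were, and all 8 were higher in all 4 gates, as were 23.4% of genes. The sum was at 0.66 (0.60 to 0.72). Each culture enters 2 of these 4 comparisons, so they are not independent.

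**Figure D2:**
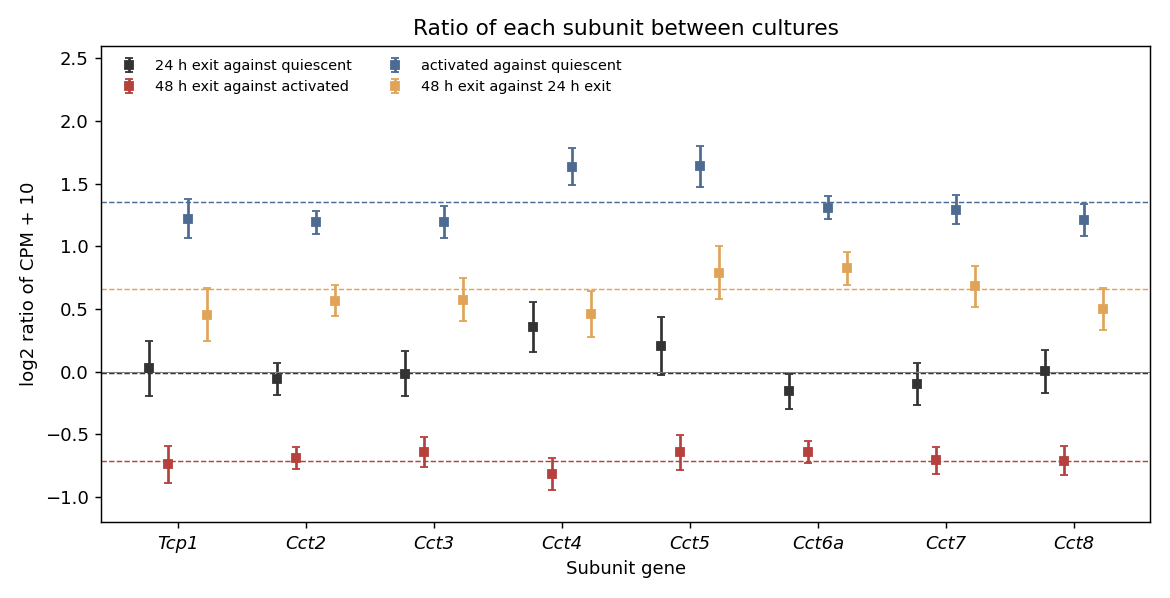
Log2 ratio of CPM + 10 for each subunit in the 4 comparisons, as squares with exact conditional binomial 95% intervals; the dashed lines mark the ratio of the TRiC sum. The 48 h against activated ratios lie closest to their line, while Cct4 and Cct5 lie above it in activated against quiescent, and Cct4 in 24 h against quiescent.

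Cct4 and Cct5 were also the members whose share of TRiC molecules varied most. Their proteins are among the strongly ATP-binding subunits of the ring, a group with other members too, and a link of that trait to the shares was not tested. Cct5 made up 5.37% of the quiescent molecules, 6.39% of those at 24 h, 7.42% of those at 48 h and 7.27% of the activated ones, a range of 1.38 times. The share of Cct4 varied 1.33 times, with 8.68% at 48 h and 9.58% in the activated culture. The other 6 shares varied 1.06 to 1.14 times.

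As a share of counts, TRiC transcripts were lower in the High than in the Low autofluorescence gate in each of the 4 cultures, and per spike-in molecule that direction turned in 3 of them (not at 48 h). The sum in the Low and the High gate was 1280 and 928.6 CPM in quiescent cells and 1344 and 949.9 CPM after 24 h. It was 2287 and 1259 CPM after 48 h, and 3025 and 2423 CPM in activated cells. All 8 subunits had a lower share of counts in the High gate in all 4 cultures, as did 21.2% of 8739 genes, and all 8 also lay below the median gene of each culture in all 4, as did 11.6%. Per 1000 spike-in molecules the sums from Low to High were 68.7 and 99.0 in quiescent cells, 60.3 and 69.5 at 24 h, 148.2 and 143.2 at 48 h, and 245.7 and 404.5 in activated cells. Median molecules per cell in the Low and the High gate were 18910 and 40452 in quiescent cells and 25566 and 55395 in activated cells.

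**Figure D3:**
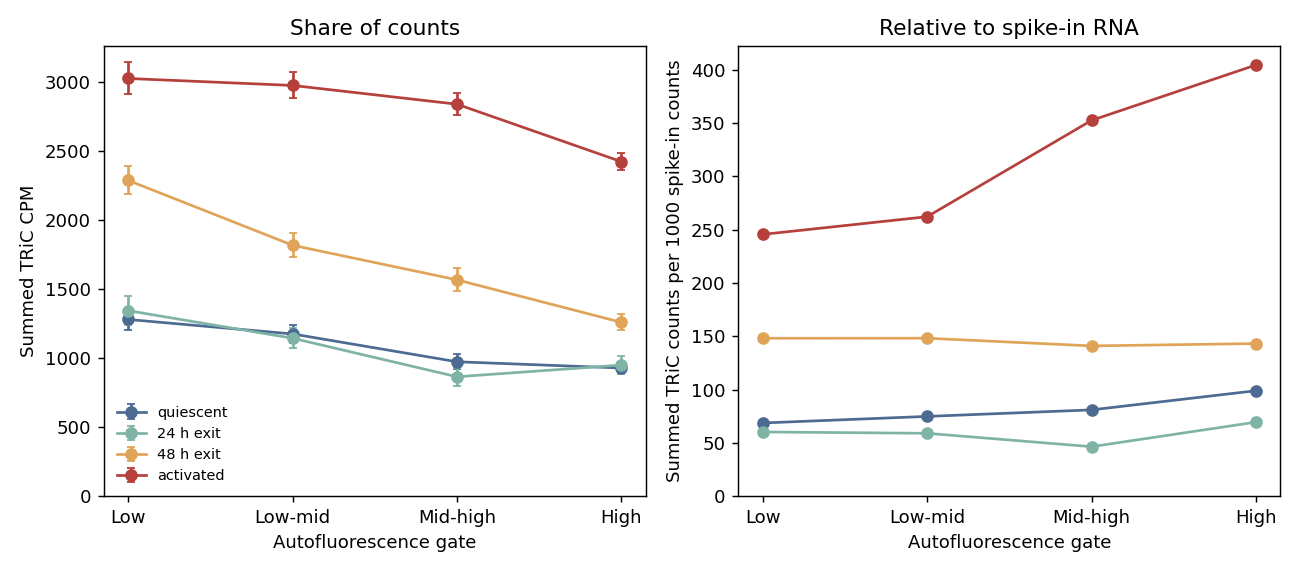
Summed TRiC level by autofluorescence gate in the 4 cultures, as CPM with exact Poisson 95% intervals (left) and as molecules per 1000 spike-in molecules (right). The share of counts is lower in the High than in the Low gate in each culture, while the spike-in scale gives 245.7 against 404.5 in the activated culture and 148.2 against 143.2 at 48 h.

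Cct6a was the 1 subunit that passed the gate test, in which counts of the High and Low gates were summed per culture and compared in edgeR with culture as a block. Its CPM in the Low and High gates was 283.1 and 195.1 in the quiescent culture and 311.1 and 164.02 at 24 h. It was 505.6 and 251.4 at 48 h, and 614.4 and 485.8 in the activated culture. The 4 High values were lower than the Low value of the same culture. The edgeR log2 fold change was -0.53 (SE 0.128, Benjamini-Hochberg adjusted p = 0.0324, lower in 4 of 4 cultures), and 42 of 8739 genes (0.481%) were called lower, of 2.38% called in either direction. The call was lost without the 24 h culture (adjusted p = 0.1), without 48 h (0.279) and without the activated culture (0.0631) in edgeR, and with spike-in scaling its fold change was 0.20.

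The other 7 subunits had negative fold changes that did not pass, from -0.43 for Cct2 (adjusted p = 0.0654 in edgeR) to -0.20 for Cct3 (0.471). The median of the 8 was -0.31 and that of all genes -0.00168. With spike-in scaling all 8 had positive values, from 0.20 to 0.54, and 5 of 8 were called higher, beside 73.1% of all genes, whose median was 0.74. Phase differed between the gates. The authors called 0% of Low and 32.5% of High cells G0 at 48 h, 76.7% and 86.4% in the quiescent culture, and 84.4% and 89.2% at 24 h. In the activated culture 100% of Low and 78.3% of High cells were in S or G2/M. Within 1 phase class per culture (G0 in quiescent and 24 h, S or G2/M in 48 h and activated cells), an alternative added after seeing the data, the median of the 8 was -0.32 and 0 were called in edgeR, with Cct6a at -0.53 (adjusted p = 0.0632). The part of total RNA per cell in these values was not tested. All 4 astrocyte markers had higher fold changes in the High gate, with a median of 0.72, and 1 of them, S100b, rose by 1.21 (edgeR adjusted p = 0.00294). Their part in the result was not tested.

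Cells in S or G2/M, as the authors called them, were compared with G0 and G1 cells of the same culture. That reference was mostly G0 in the quiescent culture (146 G0 and 12 G1 cells) and at 24 h (138 and 6). It was mixed at 48 h (22 and 21) and nearly all G1 in the activated culture (1 and 23), so the test averages over unlike references. The TRiC sum was 1036 and 1233 CPM in quiescent cells out of and in S or G2/M, and 1025 and 1443 at 24 h, where only 7 cells were cycling. It was 1447 and 1735 CPM at 48 h and 2469 and 2774 in the activated culture. As a share of counts the cycling sum was the higher in each culture, yet activated G0 or G1 cells exceeded the cycling cells of the other 3 cultures. Per 1000 spike-in molecules the activated sums were 326.1 in G0 or G1 and 322.7 in S or G2/M, while the cycling sum stayed higher in the other 3 cultures. In edgeR 0 of 8 subunits were called, beside 1012 of 10336 genes called higher (9.79%, of 16.6% called in either direction), and DESeq2 called 0. An unadjusted edgeR p under 0.05 was found for 2 of 8 (Tcp1 and Cct4), and for 3020 of the 10336 genes. All 8 fold changes were positive, with a median of 0.19 beside -0.045 over all genes. The largest was Tcp1 at 0.37 (SE 0.128, edgeR adjusted p = 0.0555). Mki67, a proliferation marker that is on gene lists in common use for calling phase, had 4.76 in the same test, as a description.

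Against G1 cells alone the median subunit was at 0.01 and 4 of 8 were negative in edgeR. G1 was also compared with G0 after seeing the data, in the 3 cultures with 5 or more cells of each. The sums in G0 and G1 were 1022 and 1264 CPM in quiescent cells (146 and 12 cells), 1007 and 1401 at 24 h (138 and 6 cells), and 1121 and 1771 at 48 h (22 and 21 cells). G1 was the higher in each. All 8 subunits had positive edgeR fold changes, with a median of 0.40 beside -0.0061 over all genes. In edgeR 0 were called, beside 29 of 6829 genes called higher (0.425%, of 1.67% called in either direction). An unadjusted edgeR p under 0.05 was found for 5 of 8, and for 806 of the 6829 genes. DESeq2 called 0 of the 2 it adjusted. Within S, G2/M and G1 of the activated culture the sums were 2883, 2692 and 2498 CPM. Per 1000 spike-in molecules they were 318.5, 326.0 and 329.4, so the order turned on that scale.

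Single cells showed the same order of cultures at equal depth. After each cell was thinned to 12751 molecules, which left out 21 quiescent, 32 24 h, 12 48 h and 6 activated cells, the median cell held 13, 13, 22 and 37 TRiC molecules. All 8 subunits were seen in 9.80% of quiescent, 14.3% of 24 h, 40.3% of 48 h and 77.8% of activated cells. None of the thinned cells lacked all 8. The thinned share of cells with Cct5 was 51.0% (exact binomial 42.8 to 59.1) in the quiescent and 93.0% (87.9 to 96.5) in the activated culture, and 64.9% and 99.4% before thinning. Cct6b, a relative of Cct6a known from testis, was seen in 0 of 153 thinned quiescent cells, which allows a share of cells with a molecule of up to 1.96% and sets no limit on expression below detection. Before thinning it was seen in 0.575% of quiescent and 2.44% of activated cells.

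**Figure D4:**
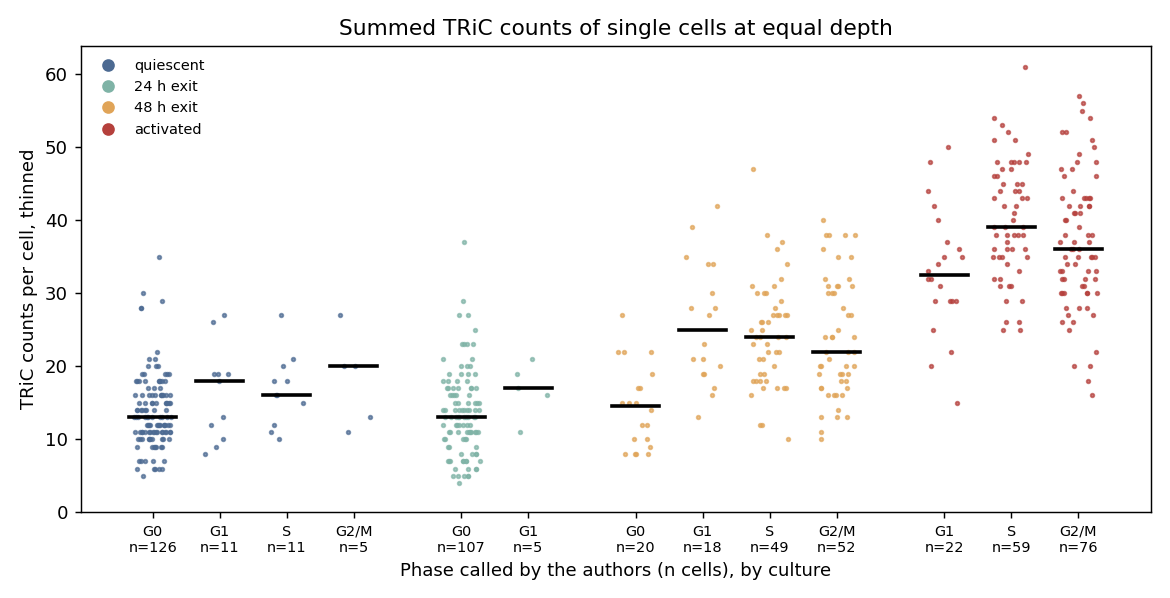
TRiC molecules per cell after thinning to equal depth, by culture and by the phase the authors called; each point is a cell, the bars are medians, and classes under 5 cells are left out. G0 cells of the quiescent, 24 h and 48 h cultures have medians of 13, 13 and 14.5, and 48 h G1 cells have a median of 25.

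The 4 clusters the authors drew follow the cultures and were made from genes of these same cells, so no test was made. Cluster 1 (166 cells, all quiescent) had 1051 CPM of TRiC, cluster 0 (188 cells, 145 of them from 24 h) 1096, cluster 3 (122 cells, 109 from 48 h) 1732 and cluster 2 (164 cells, 163 activated) 2726. Clusters 0 and 3 could be compared inside a culture. At 48 h, 41 cells of cluster 0 had 1309 CPM and 109 cells of cluster 3 had 1774 CPM. The subunit log2 ratios of cluster 3 to cluster 0 ran from 0.18 (Cct3) to 0.62 (Cct4). At 24 h the values were 1022 CPM in 145 cells and 1589 CPM in 6 cells, with ratios from -0.016 (Cct4) to 0.93 (Cct2). Mki67 also differed between clusters 0 and 3, with 28.1 and 476.3 CPM at 48 h and 8.26 and 612.7 CPM at 24 h. The part of the cell cycle in these TRiC values was not tested.

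The partners of TRiC did not all differ in 1 direction between cultures. These lists were chosen with earlier results of these data known. In activated against quiescent cells 55.1% of 11011 genes were higher, with a median of 0.07 over all genes. Of 5 measured prefoldin genes 4 were higher, with a median of 0.35: Vbp1 was at 0.81 and Pfdn4 at -0.97. Of 14 actin and tubulin genes 11 were higher, with a median of 0.89, from -1.31 for Tubb3 to 2.13 for Tubb5. Actb was at 1.32, Actg1 at 1.36 and Tuba1b at 2.06. The 12 genes of the HSP70 and HSP90 systems, which hold nascent and client proteins, were all higher, with a median of 0.85. Hspd1 and Hspe1, the mitochondrial chaperonin and its lid, were at 1.49 and 1.32. In 48 h against activated cells the medians were -0.23 for prefoldin, -0.28 for actin and tubulin, -0.60 for HSP70 and HSP90 and -0.49 for the mitochondrial chaperonin.

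Some substrates of TRiC passed the phase test. Of 13 actin and tubulin genes tested 6 rose in S or G2/M in edgeR, beside 9.79% of all genes, among them Tuba1b by 1.70 (adjusted p = 7.04e-09) and Tubb5 by 1.69 (8.83e-09), and 0 fell. Of 9 other reported substrates 4 were higher (Cdc20, Plk1, Ccne1 and Fzr1) and 1, the transcription factor Stat3, fell by 0.50 (edgeR adjusted p = 0.0114). The authors called the phases from scores over genes of the same cells, and which genes those were is not given in the sources used here. Cdc20 and Tubb4b, 1 of the 6 above, are on lists in common use for such scores, and genes of the cell cycle differ between such classes by their construction, so these counts are a description. Hsp90aa1 rose by 0.59 (edgeR adjusted p = 0.000603). Of 5 prefoldin genes tested, 0 were called.

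Over the 16 sums of a culture and gate, the genes most like the TRiC sum by Pearson r of log2 levels were Pabpc1 (0.993), Npm1 (0.990), Rbbp7 (0.989), Pcbp1 (0.988) and Eif2s1 (0.988), out of 4998 genes compared, of which 144 were above 0.95. Each subunit against the sum of the other 7 gave 0.948 (Cct4) to 0.986 (Cct2). The 16 sums share 4 cultures and 2 plates, so these values are descriptions. In the gate test the HSP70 and HSP90 genes were also all negative (12 of 12, with 0 called), while 5 tested prefoldin genes had a median of 0.14. The median over all genes was -0.00168 in that test, and with spike-in scaling 73.1% of all genes were called higher in the High gate.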

How the data were processed

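SORT-seq and CEL-Seq2 libraries of 2 plates were analysed. The authors deposited expected counts, molecules corrected for sharing 1 of 4096 identifiers; inverting this gave whole numbers within 0.0001 in the merged table. BWA 0.7.15, R 4.2.0 and Seurat 4.1.1, and the builds hg19 and mm10, are named in the submitters' processing notes, without roles. Cell culture, gate, phase and cluster, percent of mitochondrial counts, autofluorescence intensity and phase score come from the deposited per-cell table. All 768 well columns of the plate tables were checked to be at least 0. CPM were computed from summed counts. Intervals (95%, exact Poisson, binomial or conditional binomial) cover counting error only. For the tests, expected counts summed per culture and class were rounded to whole numbers and entered edgeR 4.0.16 (TMM, filterByExpr, quasi-likelihood, Benjamini-Hochberg at 0.05 over all genes) and DESeq2 1.42.0 in R 4.3.3.

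The filter was first run by group. It was changed to the design matrix after those results were seen, and both forms are given. The 4 cultures, 1 per state, are the replicates of the gate and phase tests, so p-values set the difference against its spread across states. In edgeR that spread was drawn in large part from other genes. Each gene had 3 residual degrees of freedom, beside a median of 17.6 (gate) or 15.2 (phase) drawn from all genes. Both tests were tested on simulated data, where most changes of 1.5-fold were not called, so a subunit that was not called is not shown to be unchanged. Ratios of levels used genes with 20 or more counts. Named genes were the 8 subunits, up to 4 of each list by counts, the 5 genes most like the TRiC sum (500 or more counts; mitochondrial, ribosomal protein and predicted genes left out), Mki67 and Top2a; Tubb3, Tubb4b, Tubb5, Cdc20, Plk1, Ccne1, Fzr1, Stat3 and the genes at the ends of a list were named after their values were seen. The members and lists were chosen with earlier results of these data known. Alternatives were other scalings, filters, totals and cell sets, and each culture left out.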

Additional observations from a re-analysis of the deposited data

Results flagged for a closer look

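Each subunit and the sum were looked at over the 4 gate sums of each culture, 36 groups in all, for a gate far from the others. Chance flags about 1 in 20 such groups, and the gates are ordered sorts rather than replicates. Tcp1 in the High gate of the quiescent culture had 63.2 CPM, and the other gates had 76.3 to 77.3 CPM. Cct6a in the High gate of the activated culture had 485.8 CPM, and the other gates had 614.4 to 636.2 CPM.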

How the results depend on the processing

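The labels give no replicate number shared between groups, and the gate and phase tests pair their sums by culture. Of the sums between cultures, the 24 h against quiescent log2 ratio was -0.48 per spike-in molecule. The 48 h against activated ratio was -0.57 without mitochondrial and ribosomal protein genes in the total, -1.15 per spike-in molecule and -0.77 in cells above the median total. Activated against quiescent was 2.00 per spike-in molecule. The 48 h against 24 h ratio was 0.74 without mitochondrial and ribosomal protein genes, 1.32 per spike-in molecule, 0.73 as a mean over cells and 0.53 in cells above the median total. Cct4 at 24 h was -0.067 per spike-in molecule.

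In the gate test (1 subunit and 208 genes called in edgeR) the subunits called were 3 with no scaling, 2 with no filter, 3 with all 4 gates, 4 with a trend, 0 with no culture block, 0 within 1 phase class and 5 with spike-in scaling; all genes called were 124 with DESeq2, 330 with no scaling, 414 with no filter, 522 with all 4 gates, 638 with a trend, 0 with no culture block (114 at an unadjusted p under 0.05), 84 within 1 phase class and 6391 with spike-in scaling. With the filter by group 1 subunit and 223 genes were called. Leaving out each culture gave 0 to 1 subunits and 20 to 179 genes, and with the filter by group 0 to 1 and 19 to 183 (127 without the activated culture), where the call of Cct6a held without the activated culture (adjusted p = 0.0425 in edgeR). With spike-in scaling Tcp1 was at 0.43, Cct2 0.30, Cct3 0.54, Cct4 0.46, Cct5 0.46, Cct6a 0.20, Cct7 0.44 and Cct8 0.35.

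In the phase test (0 subunits and 1711 genes called) 1 subunit, Tcp1, was called with no scaling and with spike-in scaling. Genes called were 1077 with DESeq2, 875 against G1 only, and 1031 to 1467 leaving out each culture. Against G1 only Cct2 was at -0.022, Cct3 -0.11, Cct5 -0.10 and Cct8 -0.12. Leaving out each culture, Cct5 ran from -0.11 (without 48 h) to 0.14 and Cct8 from -0.050 (without 24 h) to 0.055; Cct8 was also -0.050 with at least 10 cells in each sum. In G1 against G0 (114 genes) 3 subunits and 254 genes were called with spike-in scaling, 59 genes with DESeq2 and 63 to 124 leaving out each culture, with Cct4 from -0.015 (without 48 h) to 0.38 and Cct7 from -0.031 (without 48 h) to 0.35. The cause of these moves was not tested. Some phase sums rest on few cells, such as 6 G1 cells at 24 h.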
